A study of Neurospora crassa with 6 samples.

Results

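The 9 genes described here encode the 3 mitogen-activated protein (MAP) kinase cascades of the filamentous fungus Neurospora crassa. They were chosen by gene ID among the 9691 genes of the expression tables, and the symbol of each in the RefSeq gene table was the one given here. The cell wall integrity cascade is mik-1 (NCU02234), mek-1 (NCU06419) and mak-1 (NCU09842). The cell fusion cascade is nrc-1 (NCU06182), mek-2 (NCU04612) and mak-2 (NCU02393). The osmotic cascade is os-4 (NCU03071), os-5 (NCU00587) and os-2 (NCU07024). In each cascade the genes are listed in the order in which their products act: a MAP kinase kinase kinase (MAPKKK), a MAP kinase kinase (MAPKK) and a MAP kinase (MAPK).

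Wild-type conidia, the asexual spores, were grown as shaken suspensions in minimal medium for 6 h and then for 1 h more with 20 µM staurosporine or with DMSO, its solvent. Staurosporine inhibits many protein kinases and induces cell death in this fungus. Each agent was used in standard minimal medium, in medium labelled 0 Ca2+ and in medium labelled 20 mM CaCl2, and each of these 6 groups is 1 library of poly(A) RNA. The calcium content of standard medium is not stated in the labels. No group has a replicate, so a difference between 2 libraries has no replicate error, and p-values below take the media, or the agents, as repeats of one another. Where 3 values follow one another for a gene and agent, they are those of standard, 0 Ca2+ and 20 mM CaCl2 medium, in this order.

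A MAPKKK phosphorylates and activates its MAPKK, which in turn activates the MAPK, and the MAPK phosphorylates transcription factors and other targets. In fungi the cell wall integrity cascade answers wall stress through the GTPase Rho1 and protein kinase C. The cell fusion cascade is needed in Neurospora for germlings to find each other and fuse. The osmotic cascade is governed by a histidine kinase relay and is the route by which phenylpyrrole and dicarboximide fungicides act. These proteins are switched by phosphorylation, and the tables measure only their transcripts. The sequences of the 9 genes are not used here.

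Levels are given as FPKM, fragments per kilobase of transcript scaled to the mapped reads of the library, which allows genes of unequal length to be compared within a library. Over the 6 libraries the FPKM of all genes summed to between 500315 and 1001098, and each of the 3 staurosporine sums was below each of the 3 DMSO sums. A ratio of staurosporine to DMSO libraries therefore depends on the scaling, and read depth is unknown. The 5 conidia markers con-6, con-8, con-10, con-13 and eas summed to 21.9, 8.16 and 75.7 FPKM with DMSO. With staurosporine they summed to 56.3, 96.6 and 58.4 FPKM. These sums mix markers that differed in pattern. The surface protein gene eas held 18.0, 2.10 and 69.7 FPKM of them with DMSO and 39.4, 7.95 and 52.2 FPKM with staurosporine. In 0 Ca2+ medium with staurosporine con-6 and con-10 held 42.2 and 35.1 FPKM, while con-13 was listed at 0 in 3 libraries. The part of these markers in any kinase result was not tested.

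The MAPKKK genes were the lowest transcripts of their cascades in every library and the MAPK genes mostly the highest. By median over the 6 libraries, mek-1 stood at 208 FPKM, mak-1 at 185, mak-2 at 172 and os-2 at 99.6. The MAPKK genes mek-2 and os-5 followed at 59.7 and 26.6 FPKM, and os-4, mik-1 and nrc-1 at 14.4, 10.5 and 8.68. The order of mek-1, mak-1 and mak-2 changed with the library: mek-1 was above mak-1 in 2 of 6 libraries, and mak-1 above mak-2 in 2 of 6. The ranges of mak-2 and os-2 did not overlap, whereas those of every other pair of neighbours in this order did. Even so, mek-2 exceeded os-5, os-5 exceeded os-4 and os-4 exceeded mik-1 in 6 of 6 libraries. The largest range belonged to mek-1, whose highest level was 5.34 times its lowest, and the smallest to mek-2, at 1.74 times.

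**Figure D1:**
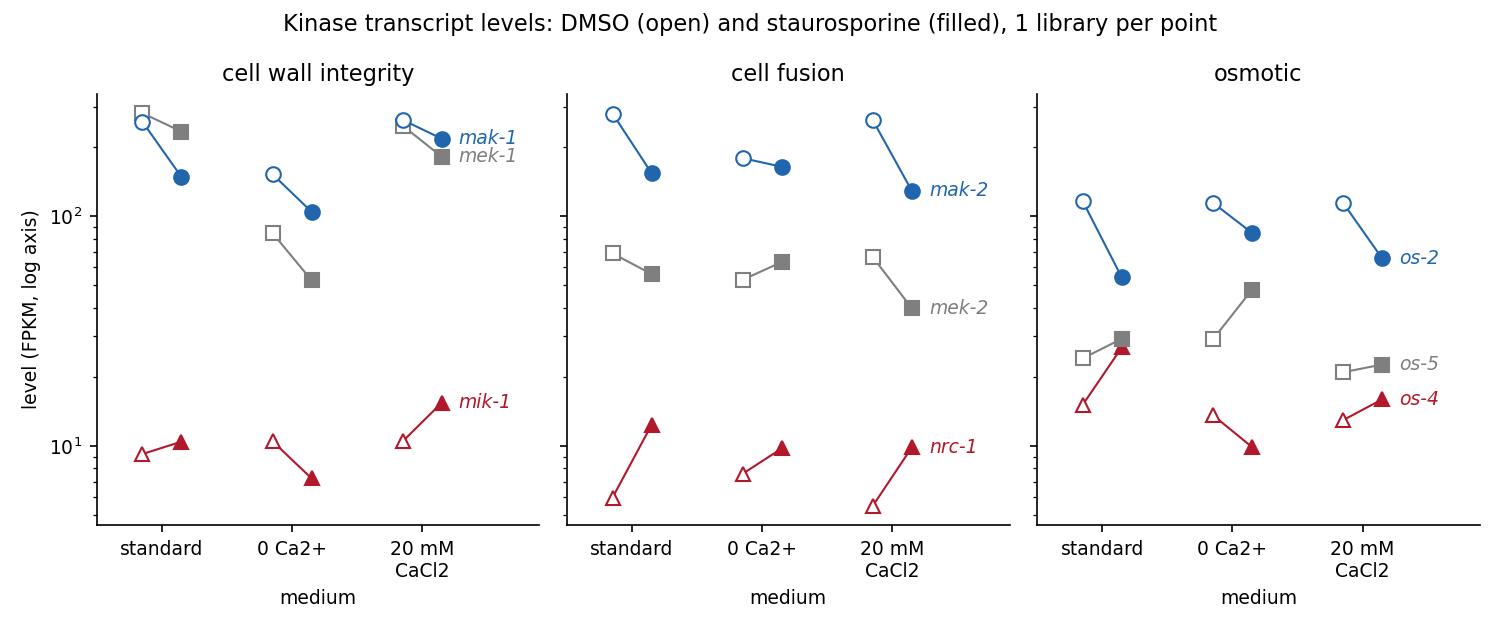
FPKM (log axis) of the 9 kinase genes by medium, 1 panel per cascade; open symbols are DMSO and filled symbols staurosporine libraries, 1 library each, with triangles for MAPKKK, squares for MAPKK and circles for MAPK. The squares of mek-1 lie at 84.5 and 52.6 FPKM in 0 Ca2+ medium and between 182 and 281 FPKM in the other media.

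The largest difference between DMSO libraries among the 9 genes was that of mek-1, the MAPKK gene of the cell wall integrity cascade. With DMSO it stood at 281 FPKM in standard medium, 84.5 in 0 Ca2+ medium and 248 in 20 mM CaCl2 medium. With staurosporine it stood at 234, 52.6 and 182 FPKM. Both 0 Ca2+ libraries were below all 4 others, so the media did not overlap in this respect. In the DMSO libraries the level in 0 Ca2+ medium was 0.300 of that in standard medium, a log2((FPKM + 1) ratio) of -1.72. Among 7079 genes with a mean of at least 1 FPKM in that pair, 50 had a ratio this low or lower, 2.33% were lower by at least 2-fold, as against 1 of the 9 kinase genes, and 2.99% were higher, as against 0. In the authors' deposited table this difference has q = 8.54e-06, a value from 1 library per condition.

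The product of mak-1, the MAPK gene of the same cascade, is the kinase that MEK-1 activates. The mak-1 transcript stood at 258 FPKM in standard medium, 152 in 0 Ca2+ medium and 263 in 20 mM CaCl2 medium with DMSO. With staurosporine the levels were 148, 105 and 218 FPKM. Under each agent the 0 Ca2+ library was the lowest of the 3, but the 152 FPKM of its DMSO library was above the 148 FPKM of standard medium with staurosporine. The mak-1 gene, of 3939 bp, overlaps NCU09843 by 1160 bp in the RefSeq annotation. Reads from this shared stretch may not be told apart by position alone. Whether counting used strand is not given in the sources used here. NCU09843 itself was listed at 37.2, 30.3 and 26.8 FPKM with DMSO and at 14.9, 6.88 and 50.2 FPKM with staurosporine. With staurosporine it was thus lowest in 0 Ca2+ and highest in 20 mM CaCl2 medium, as mak-1 was. The part of this overlap in the mak-1 levels was not tested.

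For mik-1, the MAPKKK gene, the DMSO libraries held 9.23, 10.5 and 10.5 FPKM. Those with staurosporine held 10.5, 7.24 and 15.5 FPKM. The lowest and the highest level of this gene were thus both in staurosporine libraries, and the DMSO libraries lay within 9.23 to 10.5 FPKM.

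The comparison of 20 mM CaCl2 with 0 Ca2+ medium was tested with limma's moderated test over both agents in a fit of all 6 libraries and 7415 genes. The mean log2 ratio was 1.65 (SE 0.40) for mek-1, with 1.54 under DMSO and 1.77 under staurosporine. Its unadjusted p was 0.00498 and its Benjamini-Hochberg adjusted p 0.448, so it did not pass. For mak-1 the mean was 0.92 (SE 0.41; adjusted p = 0.510), higher in 2 of 2 pairs. Of the 9 kinase genes 0 passed and 1 had an unadjusted p below 0.05. Over all genes 0 of 7415 passed, or 0%, with 685 at an unadjusted p below 0.05, and the lowest adjusted p of any gene was 0.0567.

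In the staurosporine libraries alone, mek-1 and mak-1 were higher in 20 mM CaCl2 than in 0 Ca2+ medium by at least 2-fold on the log2(FPKM + 1) scale, and os-5 was lower, at a log2 ratio of -1.05. Of all 7598 genes 20.5% were higher in that pair and 25.1% lower. The FPKM of mik-1 was 2.14 times as high in 20 mM CaCl2 medium, and that of mak-1 2.08 times, but with the pseudocount of 1 mik-1 stood just under 2-fold. With a pseudocount of 0.1 or centred ratios mik-1 passed it as well, at 1.08 and 1.04, and 4 of the 9 genes were past 2-fold. With centred ratios 1615 of the 7598 genes were higher by at least 2-fold and 1837 lower. With the trend in gene length or in level removed, mak-1 stood at 0.79 or 0.85 and was no longer past 2-fold. For the pseudocount of 0.1 and the removed trends, counts over all genes were not made. With DMSO only mek-1 was higher by at least 2-fold, where 4.63% of genes were, and 0 of the 9 were lower, where 3.54% were. Between 20 mM CaCl2 and standard medium with DMSO, ratios of the 9 genes lay between -0.21 and 0.17. By at least 2-fold, 2.12% of genes stood higher in that pair and 0.801% lower, and 0 of the 9 did either.

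Among the other genes of the wall pathway, the MADS-box transcription factor gene NCU02558 had the largest mean ratio of 20 mM CaCl2 to 0 Ca2+ medium. Its product is of the MEF2 type, the class to which the wall regulator Rlm1 of yeast belongs. It stood at 26.0, 14.7 and 52.2 FPKM with DMSO, and at 10.8, 7.31 and 52.9 FPKM with staurosporine. The 2 libraries with 20 mM CaCl2 were above the other 4, and the mean log2 ratio of 20 mM CaCl2 to 0 Ca2+ was 2.23 (SE 0.47; limma adjusted p = 0.428). The glucan synthase genes NCU06871 (1,3-beta-glucan) and NCU08132 (alpha-1,3-glucan) had log2 ratios of 2.21 and 2.04 between these media with staurosporine and of -0.03 and -0.49 with DMSO. The difference between agents was not tested. Of the 10 listed wall pathway genes, 10 had a ratio above 0 with staurosporine and 6 were higher by at least 2-fold, beside 20.5% of all genes. With DMSO 7 were above 0 and 1, NCU02558, was higher by at least 2-fold, beside 4.63%. With staurosporine the ratio of these media also differed with gene length. The 501 genes nearest in length to mak-2 had a median of 0.06, and the 501 longest genes, mik-1 among them, 0.78. The part of length in these counts was not tested. Over both agents 0 of 10 passed the limma test, with 2 at an unadjusted p below 0.05.

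**Figure D2:**
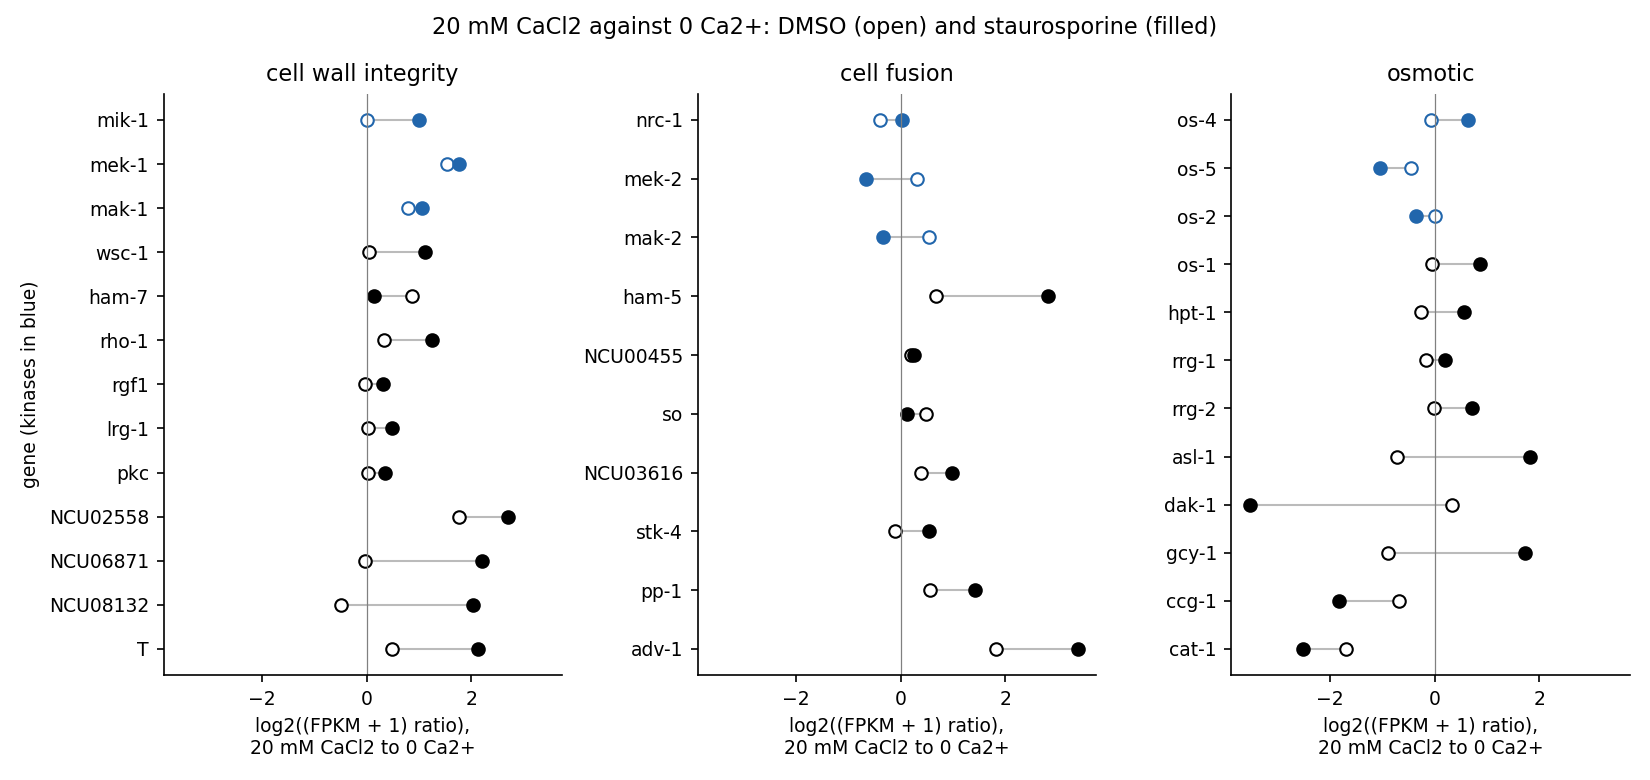
log2((FPKM + 1) ratio) of 20 mM CaCl2 to 0 Ca2+ medium for the kinase genes (blue) and the listed pathway genes (black) of each cascade; open points are the DMSO pair and filled points the staurosporine pair of libraries. Both points of mek-1 lie above 1.5, those of mak-1 at 0.78 and 1.05, and those of adv-1 at 1.83 and 3.39.

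The 3 MAPK genes all had log2 ratios of staurosporine to DMSO below 0 in every medium, as deposited. The lowest mean was that of os-2, the p38-type MAPK of the osmotic cascade. With DMSO os-2 stood at 116, 115 and 114 FPKM, so its DMSO libraries lay close together. With staurosporine it stood at 54.3, 84.7 and 65.7 FPKM, and the agents did not overlap. Its log2 ratios were -1.09, -0.43 and -0.79, with a mean over the media of -0.77 (SE 0.34; limma adjusted p = 0.371).

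For mak-2, the MAPK of germling fusion, DMSO libraries held 280.0, 179 and 262 FPKM. Staurosporine libraries held 154, 164 and 129 FPKM, all below all DMSO libraries. The log2 ratios were -0.86, -0.12 and -1.02 (mean -0.67, SE 0.36; limma adjusted p = 0.441). The gene overlaps NCU02394 by 127 bp in the RefSeq annotation. NCU02394 was listed at 12.6, 16.7 and 13.7 FPKM with DMSO and at 17.1, 66.1 and 11.2 FPKM with staurosporine. It was thus highest in the 0 Ca2+ library with staurosporine, the medium where the mak-2 ratio was nearest to level. The part of this overlap in the mak-2 ratios was not tested. For mak-1 the ratios were -0.79, -0.54 and -0.27 (mean -0.54, SE 0.33; limma adjusted p = 0.511).

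The size of these ratios, and the direction of some of them, depends on the scaling. With each library rescaled to the same FPKM sum, the log2 ratio of the median gene moved up by 0.87, 0.43 and 0.55. The mean over the media was then 0.11 for mak-1, -0.02 for mak-2 and -0.13 for os-2. Of the 9 kinase genes 8, 5 and 6 then had ratios above 0, as against 4, 3 and 4 as deposited. With ratios centred instead on the median of genes of at least 10 FPKM, the means stayed below 0. They were -0.33 for mak-1, -0.46 for mak-2 and -0.56 for os-2. The MAPK genes are also highly expressed, and genes of their level had lower ratios than genes as a whole. The 501 genes nearest to os-2 in mean level had median log2 ratios of -0.14, -0.48 and -0.39, and those nearest to mak-2 -0.39, -0.59 and -0.48. Relative to genes of their own level os-2 stood at -0.95, 0.05 and -0.41, mak-2 at -0.46, 0.47 and -0.54 and mak-1 at -0.39, 0.06 and 0.21. The part of level in the ratios was not tested.

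The MAPKKK gene nrc-1 and the MAPKK gene os-5 had staurosporine ratios above 0 in all 3 media. For nrc-1 the levels were 5.97, 7.58 and 5.50 FPKM with DMSO and 12.4, 9.77 and 9.89 FPKM with staurosporine. The agents did not overlap. The log2 ratios were 0.94, 0.33 and 0.74 (mean 0.67, SE 0.35; limma adjusted p = 0.430), and the mean lay between 0.47 and 1.28 over 12 alternatives.

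The MAPKKK gene os-4 differed in direction between media. Its levels were 15.1 and 26.9 FPKM with DMSO and staurosporine in standard medium, 13.6 and 9.91 in 0 Ca2+ medium, and 12.97 and 15.97 in 20 mM CaCl2 medium. The ratios were 0.79, -0.42 and 0.28 (mean 0.22, SE 0.38; limma adjusted p = 0.832). The other MAPKKK gene, mik-1, had 0.16, -0.48 and 0.52 (mean 0.07, SE 0.37; limma adjusted p = 0.955). In both, 0 Ca2+ medium was the one with a ratio below 0.

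Of the MAPKK genes, os-5 had ratios of 0.27, 0.70 and 0.11, from 24.1, 29.1 and 21.0 FPKM with DMSO to 29.3, 47.9 and 22.6 with staurosporine. The 47.9 FPKM of the 0 Ca2+ library was the highest level of this gene. The fusion MAPKK gene mek-2, which overlaps NCU04613 by 292 bp, had ratios of -0.29, 0.25 and -0.73, from 69.0, 53.0 and 66.4 FPKM to 56.1, 63.2 and 39.7. NCU04613 was listed at 16.6, 16.0 and 16.1 FPKM with DMSO and at 18.1, 25.4 and 12.2 FPKM with staurosporine. The part of this overlap in the mek-2 ratios was not tested. For mek-1 the ratios were -0.27, -0.67 and -0.45 (mean -0.46, SE 0.33; limma adjusted p = 0.559).

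**Figure D3:**
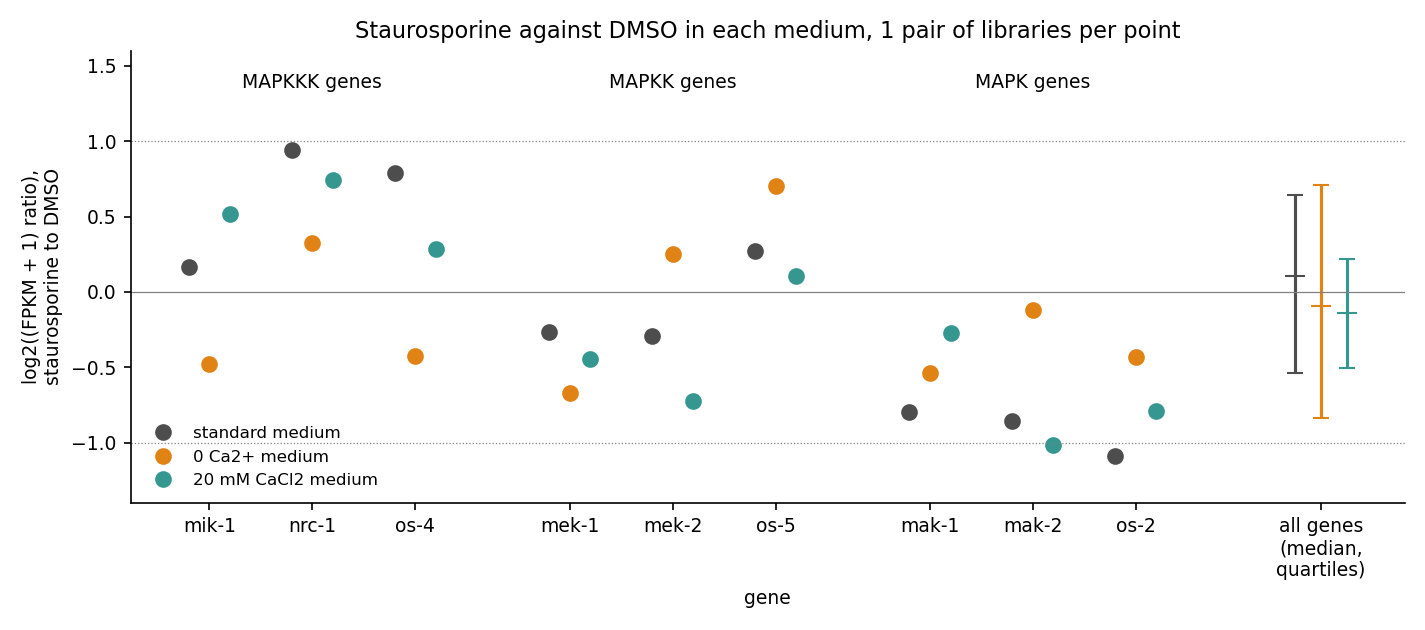
log2((FPKM + 1) ratio) of staurosporine to DMSO in each medium for the 9 kinase genes, grouped by their place in the cascade, with the median and quartiles of all genes at the right; each point is 1 pair of libraries and dotted lines mark a 2-fold ratio. All 9 points of the MAPK genes lie below 0, with os-2 in standard medium lowest at -1.09 (with equal FPKM sums the mean of mak-1 turns to 0.11), and the points of nrc-1 lie at 0.33 to 0.94.

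In limma's moderated test over the media, 0 of the 9 kinase genes passed at an adjusted p below 0.05 with a 2-fold mean, and 0 had an unadjusted p below 0.05. Their adjusted p lay between 0.371 and 0.955. Of all 7415 genes 6 were called higher and 6 lower, 0.0809% each, and 1047 had an unadjusted p below 0.05. The 12 calls became 0 without standard, 32 without 0 Ca2+ and 576 without 20 mM CaCl2 medium. In standard medium 1 of the 9, os-2, was lower by at least 2-fold and 0 higher, where 14.9% and 13.4% of all genes were. In 20 mM CaCl2 medium 1, mak-2, was lower and 0 higher, where 6.16% and 2.62% were. In 0 Ca2+ medium 0 were either, although 20.9% of genes were lower and 18.7% higher. The median ratio of the 9 was -0.27, -0.42 and -0.27, beside 0.11, -0.09 and -0.14 for all genes. The authors' deposited tables call os-2 in standard medium (q = 0.0123) and mak-2 in 20 mM CaCl2 medium (q = 0.0375) significant and no other of the 9 genes for staurosporine. By their calls 12.8% of tested genes were higher and 13.9% lower in standard, 15.5% and 20.4% in 0 Ca2+, and 1.96% and 4.18% in 20 mM CaCl2 medium. Between DMSO libraries their tables call 2.01% of genes higher and 1.94% lower in 0 Ca2+ than in standard medium, with mek-1 the 1 kinase gene. For 20 mM CaCl2 against standard medium the shares were 1.25% and 0.503%, with 0 kinase genes.

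Within a library, the ratio of a cascade's MAPK to its MAPKKK transcript does not depend on how that library was scaled. In standard and 20 mM CaCl2 medium this ratio was lower with staurosporine in all 3 cascades, and in 0 Ca2+ medium it was nearly level in the wall and osmotic cascades. The fusion ratio mak-2 to nrc-1 was 46.9 with DMSO and 12.5 with staurosporine in standard medium. It was 23.6 and 16.8 in 0 Ca2+ medium and 47.5 and 13.03 in 20 mM CaCl2 medium.

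The osmotic ratio os-2 to os-4 was 7.70, 8.40 and 8.83 with DMSO and 2.02, 8.55 and 4.11 with staurosporine. The wall ratio mak-1 to mik-1 was 27.96, 14.5 and 25.0 with DMSO and 14.2, 14.4 and 14.1 with staurosporine. In the wall and fusion cascades the DMSO library of 0 Ca2+ medium was the lowest of the DMSO libraries, at 0.519 and 0.504 of the ratio in standard medium, and in the osmotic cascade it was not, at 1.09. The 3 staurosporine values of the wall cascade lay between 14.1 and 14.4, next to the 14.5 of that library. In 0 Ca2+ medium the osmotic ratio of MAPKK to MAPKKK, os-5 to os-4, was 2.13 with DMSO and 4.83 with staurosporine. With 1 library per group these ratios have no test. Fewer cells of a kind and less RNA per cell cannot be told apart in these bulk samples.

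**Figure D4:**
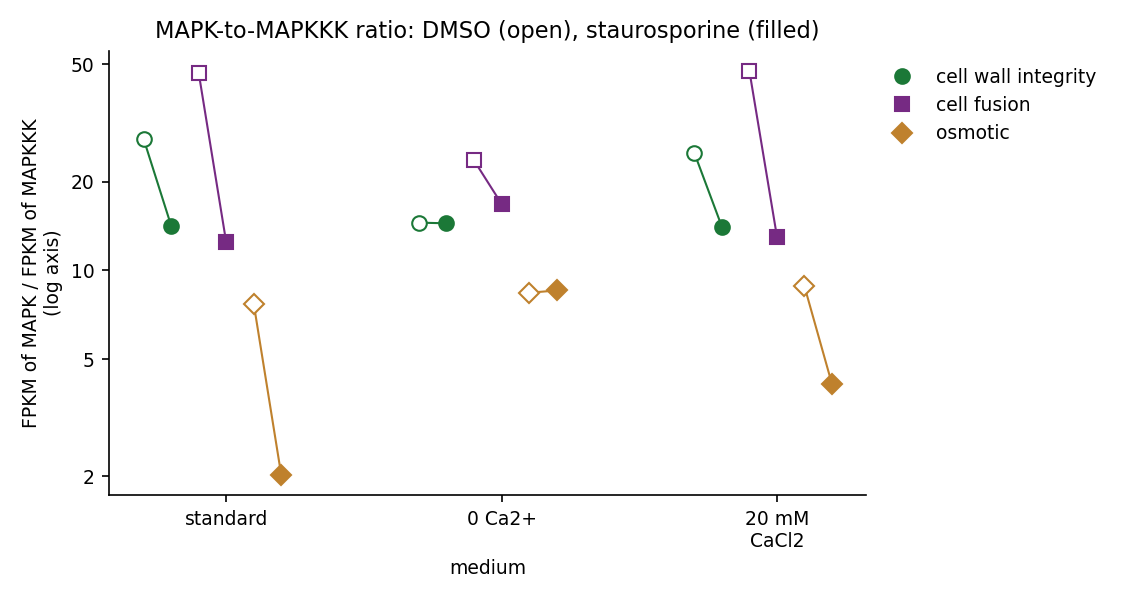
FPKM of the MAPK gene divided by FPKM of the MAPKKK gene (log axis) in each of the 6 libraries, with DMSO open and staurosporine filled; lines join the 2 libraries of a medium. In standard medium the fusion cascade goes from 46.9 to 12.5, and in 0 Ca2+ medium the wall and osmotic cascades stay near 14.5 and 8.4.

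Gene length differs between the 2 ends of a cascade. In the RefSeq table the MAPKKK genes mik-1, os-4 and nrc-1 are 7397, 5892 and 4543 bp long, and the MAPK genes mak-1, os-2 and mak-2 are 3939, 3594 and 2864 bp. The ratio of staurosporine to DMSO moved with gene length over all genes. With genes in 10 groups by length, the shortest had median log2 ratios of -0.11, 0.50 and -0.32 and the longest 0.46, -0.53 and 0.18. Long genes thus stood higher in standard and 20 mM CaCl2 medium and lower in 0 Ca2+ medium. In standard and 20 mM CaCl2 medium the MAPKKK genes also had higher ratios of staurosporine to DMSO than the MAPK genes. In 0 Ca2+ medium the wall and osmotic MAPK-to-MAPKKK ratios were nearly level. The fusion ratio there was 23.6 with DMSO and 16.8 with staurosporine. The part of length in these cascade ratios was not tested.

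Set against the 501 genes nearest in length, os-4 stood at 0.27, 0.14 and 0.07, and mik-1 at -0.36, 0.08 and 0.30. For os-4 and mik-1 these were the same genes, the 501 longest, and so not centred on the length of either. By the same measure nrc-1 stood at 0.55, 0.71 and 0.63. The MAPK genes os-2 and mak-1 stood at -1.39, -0.26 and -0.84 and at -1.14, -0.27 and -0.33, and mak-2 at -1.001, 0.06 and -0.93. Thus nrc-1 stood above the median of genes of its length in every medium, and os-2 and mak-1 below. The part of length in the ratios was not tested.

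**Figure D5:**
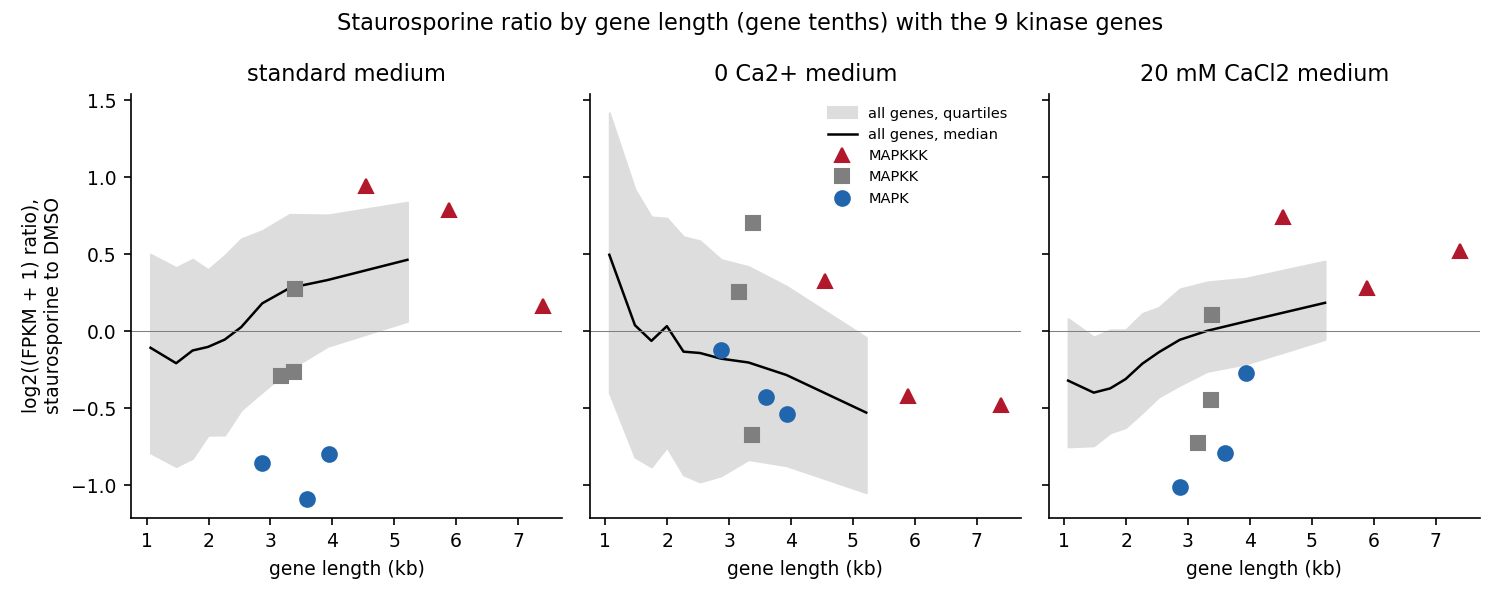
log2((FPKM + 1) ratio) of staurosporine to DMSO against gene length (kb) in each medium: the line and the grey band are the median and quartiles of all genes in 10 groups by length, and symbols are the kinase genes. In standard medium the MAPK genes, at -0.79 to -1.09, lie below the band, and in 0 Ca2+ medium the band slopes downward, with os-4 and mik-1 at -0.42 and -0.48.

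Among the other genes of the fusion pathway, the scaffold gene ham-5, whose product holds the 3 kinases of the fusion cascade together, stood at 20.6, 13.5 and 22.1 FPKM with DMSO. With staurosporine it stood at 7.15, 2.76 and 25.5 FPKM, so it was lower in the former media and not in the last. Its log2 ratio of staurosporine to DMSO was -1.41, -1.94 and 0.20 (mean -1.05, SE 0.48; limma adjusted p = 0.385). The soft gene so, also needed for germling fusion, had ratios of -1.56, 0.05 and -0.33, and the Ras gene NCU03616 -0.63, -0.90 and -0.31.

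The transcription factor gene adv-1, needed for cell fusion, stood at 77.5, 36.9 and 134 FPKM with DMSO and at 34.0, 23.5 and 256 FPKM with staurosporine. Both 20 mM CaCl2 libraries were above all others. Its ratio of 20 mM CaCl2 to 0 Ca2+ medium had a mean of 2.61 (SE 0.58; limma adjusted p = 0.428), while the kinase genes of the same cascade had means between -0.19 and 0.10. Of 7 listed fusion genes 0 passed either limma test, and 7 were higher in 20 mM CaCl2 than in 0 Ca2+ medium with staurosporine, 3 of them by at least 2-fold, where 20.5% of all genes were higher and 25.1% lower. The list's median log2 ratio of staurosporine to DMSO was -0.63, -0.62 and 0.17, beside 0.11, -0.09 and -0.14 for all genes.

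In the osmotic pathway, the phosphotransfer gene hpt-1, which relays the signal of the histidine kinase OS-1, was listed in a row that names 2 loci, so its values hold both. That row stood at 212, 229 and 191 FPKM with DMSO and at 46.6, 62.7 and 92.9 FPKM with staurosporine, without overlap (mean log2 ratio -1.68, SE 0.37; limma adjusted p = 0.292). Glycerol metabolism genes, classed here as outputs, included dak-1 for dihydroxyacetone kinase, at 4.15, 4.77 and 6.22 FPKM with DMSO and 104, 56.4 and 3.92 FPKM with staurosporine. It was thus high in the former media and not in 20 mM CaCl2 medium. The gene gcy-1 had ratios of -2.06, -2.27 and 0.36.

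The catalase gene cat-1 had ratios of 3.30, 2.60 and 1.78 (mean 2.56, SE 0.41; limma adjusted p = 0.169), and was higher in 3 of 3 media. It is a conidial catalase, and the conidia markers con-6, con-8 and con-10 had ratios of 1.06 to 1.95 in standard medium and 2.40 to 3.64 in 0 Ca2+ medium. In 20 mM CaCl2 medium con-6 and con-8 were at -0.66 and -0.63 and con-10 at 1.13. Of the other listed markers eas had ratios of 1.09, 1.53 and -0.41, and con-13 reached at most 0.964 FPKM. With staurosporine cat-1, con-6, con-8 and con-10 were highest in 0 Ca2+ medium, where eas was lowest, at 7.95 FPKM. The part of conidia in the cat-1 ratios was not tested. The sensor os-1 and the response regulator gene rrg-1 had means of 0.09 and -0.07. Of the 9 listed osmotic genes 0 passed, with 3 at an unadjusted p below 0.05, beside 1047 of 7415 genes. In standard medium 2 were higher and 3 lower by at least 2-fold, beside 13.4% and 14.9% of all genes. The counts were 2 and 3 in 0 Ca2+ medium, beside 18.7% and 20.9%, and 2 and 1 in 20 mM CaCl2 medium, beside 2.62% and 6.16%.

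For the wall pathway, the sensor gene ham-7 stood at 244, 135 and 248 FPKM with DMSO and 67.0, 137 and 151 FPKM with staurosporine. Its log2 ratio of staurosporine to DMSO was -1.85, 0.02 and -0.71 (mean -0.85, SE 0.44; limma adjusted p = 0.427). NCU02558 had -1.19, -0.92 and 0.02, the tyrosinase gene T -0.39, -1.46 and 0.19, and the protein kinase C gene pkc (NCU06544) 0.92, -0.06 and 0.26. The list's median ratio was 0.40, -0.87 and 0.12, beside 0.11, -0.09 and -0.14 for all genes. The longest of the 10 length groups had 0.46, -0.53 and 0.18, and the part of length here was not tested. In 0 Ca2+ medium, where the median of all genes was also below 0, 9 of 10 listed genes were below 0. In the limma test 0 of 10 passed.

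Across the 6 libraries the members of a cascade did not share 1 profile. As a description over 6 points that share libraries, and with no p, the log2 levels of mak-1 correlated at r = 0.83 with mek-1 and 0.51 with mik-1, and mik-1 and mek-1 at 0.45. In the fusion cascade mak-2 and mek-2 were at 0.82, while nrc-1 was at -0.88 with mak-2 and -0.53 with mek-2. In the osmotic cascade all 3 values were below 0, at -0.64 for os-4 with os-2, -0.34 for os-4 with os-5 and -0.18 for os-5 with os-2. Between cascades mak-2 and os-2 were at 0.79, and mak-1 and os-5 at -0.94. All these r values hold for FPKM as deposited. Rescaling a library shifts all its genes together and can change the size and the sign of r. No r was computed under another scaling, so the signs are not read as a trait of a cascade. Ranked by the root mean square difference of centred log2 profiles, mek-2 was 57th of 7414 genes nearest to mak-2 and os-2 was 136th. In this ranking mik-1 was 988th and mek-1 2534th nearest to mak-1, and nrc-1 5073rd to mak-2. For os-2 the places were 3524th for os-5 and 4959th for os-4.

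The named genes nearest to mak-1 by this measure were NCU06648, annotated as a polarized growth protein Boi2 (difference 0.11), and the Ras gene NCU03616 (0.15). Nearest to mak-2 were cgi-121 (0.12) and NCU12064, with an FF domain (0.15), and nearest to os-2 NCU04213, annotated as a progesterone binding protein (0.08), and NCU08794, of the UPF0041 family (0.09). For mek-1, added after its values were seen, the nearest were NCU10003, with a HET domain (0.29), and the wall glycosyl hydrolase gene gh76-5 (0.33). The latter stood at 51.8, 10.8 and 69.7 FPKM with DMSO and at 34.8, 9.97 and 34.9 FPKM with staurosporine. It was chosen for a profile near that of mek-1, so its low values in both 0 Ca2+ libraries follow from that choice.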

How the data were processed

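The labels describe poly(A) RNA read from one end, with reads of 50 bp. The submitters' processing notes name TopHat2 2.0.4, Cufflinks 2.0.2 and Cuffdiff, and no genome build is named in the sources used here. The authors deposited 5 tables of 9691 genes, each with FPKM for a pair of libraries, a log2 ratio, a p-value and a q-value, per the file headers. Columns were assigned to libraries by name. Where a library recurred, FPKM was identical between tables (0 genes differed). Read counts could not be recovered: below 0.5 FPKM, the commonest ratio between the standard and 0 Ca2+ DMSO libraries was shared by 27 of 870 genes.

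Symbols and gene lengths came from the RefSeq table of assembly NC12. Ratios used log2(FPKM + 1), which understates the change of low genes. Genes averaging at least 1 FPKM were tested with limma 3.58.1 in R 4.3.3 (additive model of medium and agent, mean trend, two-sided, Benjamini-Hochberg adjusted p below 0.05 and a 2-fold mean). Each SE is the moderated one, and the residual holds library noise and any dependence of one factor on the other. All 9 kinase genes passed that minimum. Python 3.11.15 with pandas 2.3.3 was used. The members, lists and tests were chosen with earlier results of these data known. Besides the 9 kinase genes, those named are up to 4 of each pathway list with the largest mean staurosporine ratio, the 2 with a name whose profiles lay nearest to each MAPK gene, and genes a result turns on. The 26 listed pathway genes were matched by symbol or synonym, or by ID where the tables name a fitting product. Alternatives were other pseudocounts (0.1 and 5), minimum levels (none and 10), scalings, unpaired fits, no mean trend, no minimum fold and leaving out a medium. Removal of trends with gene length (known for 95.3% of 7415 genes) and with level was added after the data were seen.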

Additional observations from a re-analysis of the deposited data

Results flagged for a closer look

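The os-4 ratio of staurosporine to DMSO was above 0 in standard medium and below 0 in 0 Ca2+ medium, and the log2 ratios differed by 1.21. With 1 library per group this difference was not tested. Relative to the median of the 501 longest genes, os-4 among them, the ratios were 0.27 and 0.14, both above 0. Relative to genes of the same level they were 0.62 and -0.22, on opposite sides of 0.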

How the results depend on the processing

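The fit pairs the agents by medium. An unpaired fit without the medium called 13 genes over the media, as against 12. No kinase gene passed either limma test under any alternative run. Over the media, the mean log2 ratio with equal FPKM sums turned to 0.18 for mek-1, 0.11 for mak-1 and 0.38 for mek-2. With the level trend removed it was 0.053 for mek-1 and 0.019 for mek-2. Leaving out 1 medium gave -0.16 to 0.34 for mik-1, lowest without 20 mM CaCl2 medium, and -0.071 to 0.54 for os-4, lowest without standard medium. With the length trend removed the calcium ratio of os-4 was -0.076. That of mek-1 lay between 1.55 and 1.67 over 10 alternatives, with an adjusted p between 0.360 and 0.696. The 12 genes called over the media became 6 with a pseudocount of 0.1, 26 with equal sums and 7 with the level trend removed. They became 0 with a pseudocount of 5, no minimum level, centred ratios or the length trend removed, and between 0 and 576 when 1 medium was left out: 0 without standard, 32 without 0 Ca2+ and 576 without 20 mM CaCl2 medium. The calcium test called 1 gene when the minimum mean FPKM was 10, 2 with equal sums and 1 with the length trend removed. Kinase genes past 2-fold in either direction with staurosporine in standard medium numbered 2 with a pseudocount of 0.1 or the length trend removed. They were nrc-1 at 1.04 and os-2 at -1.10, or mak-1 at -1.11 and os-2 at -1.41. There were 4 with equal sums and 0 with the level trend removed. The 4 with equal sums, mik-1, nrc-1, os-4 and os-5, stood higher, at 1.02, 1.81, 1.68 and 1.16, and os-2 stood at -0.19. Of 7167 genes 3382 were then higher by at least 2-fold and 366 lower. In 0 Ca2+ medium there was 1 with equal sums or the level trend removed, os-5, higher at 1.15 or 1.00. With equal sums 2129 of 7531 genes were higher by at least 2-fold and 1040 lower. In 20 mM CaCl2 medium there were 2 with equal sums and 0 with a pseudocount of 5, centred ratios or either trend removed. The 2 with equal sums were mik-1 and nrc-1, higher at 1.08 and 1.29, while mak-2 stood at -0.43. Of 7204 genes 925 were then higher by at least 2-fold and 124 lower. With centred ratios 393 of these genes were higher and 230 lower. For the other pseudocounts and the removed trends, counts over all genes past 2-fold were not made. The changed counts of kinase genes under those settings are therefore not read as particular to them. The causes were not tested. A minimum mean of 10 FPKM leaves out nrc-1. Depth is unknown.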
